A study of Mus musculus with 32 samples.

Results

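The proteasome genes were taken as every gene with a single annotated symbol of the pattern Psma to Psmg, without the immunoproteasome subunits Psmb8, Psmb9 and Psmb10. This gave 45 of the 13674 genes with a single symbol on the arrays. A pair of them, Psmc3ip, a protein of meiotic recombination, and Psme3ip1, fit the pattern by name and are no proteasome subunit, which left 43 genes: 15 of the 20S core (Psma and Psmb), 20 of the 19S cap (Psmc and Psmd) and 8 activators, inhibitors and assembly chaperones (Psme, Psmf and Psmg). Psme2 was left out because its probe set is annotated with 2 genes.

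Total RNA of the cardiac ventricle was hybridised to 2 types of Affymetrix array, with 3 arrays of AT1 transgenic mice in cardiac failure, 8 of AT1 transgenic mice with cardiac hypertrophy and 5 of wild type mice on each type. The transgene is cardiac specific and is carried by both the failure and the hypertrophy group, while the wild type mice lack it and are described as having a normal heart. What AT1 stands for is not spelled out in the labels, and neither strain nor age nor sex is stated. Nor is it said that each array of a group is a different animal, so the p-values rest on the spread between arrays, which may be partly technical. Failure and hypertrophy therefore differ in the state of the heart under a shared transgene, and each was also set against wild type.

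The proteasome is the protease that breaks down most proteins tagged with ubiquitin. Its barrel-shaped core is built of rings of alpha subunits, which gate the entrance, and rings of beta subunits, of which 3 (Psmb5, Psmb6 and Psmb7) carry the active sites. The cap recognises the ubiquitin chain, removes it and uses a ring of ATPases to unfold the protein and feed it into the core. In heart muscle, whose contractile proteins are replaced throughout life, this route is a main path of protein turnover. The subunits are made in fixed proportions, and the transcription factor Nrf1 (gene Nfe2l1) is known to raise many of their genes together through antioxidant response elements in their promoters.

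None of the 37 tested proteasome genes passed an adjusted p of 0.05 in failure against wild type, hypertrophy against wild type or failure against hypertrophy, where 0.223%, 0.0849% and 0.0212% of the 9427 genes tested passed. The list as a whole is described by its counts and medians. In failure against wild type 27 of 37 log2 differences were above 0, with a median of 0.12, where 58.3% of all genes were above 0 and the median of all genes was 0.04. In hypertrophy against wild type 13 of 37 were above 0 with a median of -0.04, beside 51.2% and 0.00 for all genes. In failure against hypertrophy 30 of 37 were above 0 with a median of 0.18, beside 57.7% and 0.03 for all genes. Without wild type replicate 2 the median of failure against wild type was 0.056, and without hypertrophy replicate 1 those of hypertrophy against wild type and failure against hypertrophy were -0.00074 and 0.11. Each pair of comparisons shares the arrays of a group, so they are no independent repeats of each other.

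These counts depended on how the arrays were scaled. The deposited signals had array medians of 109 to 120.2 on the failure arrays, 91.5 to 121 on the hypertrophy arrays and 106 to 112 on the wild type arrays of the first type. With each array divided by its own median, 20 of 37 differences were above 0 in failure against wild type (39.8% of all genes) and 25 of 37 in failure against hypertrophy (42.2% of all genes). The median of the core in failure against wild type turned to -0.03 and that of all genes to -0.05, so that the core stayed 0.02 above all genes, beside 0.03 as deposited. At an unadjusted p of 0.05, 4 proteasome genes were higher and 1 was lower in failure than in wild type, where 7.49% and 3.62% of all genes were. In hypertrophy against wild type 1 was higher and 2 were lower, where 4.14% and 2.63% of all genes were. In failure against hypertrophy 4 were higher and 2 were lower, where 6.09% and 3.19% were.

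A sign of RNA quality also moved with failure. The ratio of 5' to 3' Actb signal, a measure of RNA integrity, was 1.10, 0.765 and 1.02 on the failure arrays of the first type, 0.357 to 0.992 on the hypertrophy arrays and 0.545 to 0.752 on the wild type arrays. On that type all failure arrays were above wild type, and on the second type the groups overlapped, with means of 1.09 ± 0.207 in failure and 0.747 ± 0.144 in wild type (SD, n = 3 and 5). Its part in the differences that follow was not tested.

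In the core, 11 of 15 genes lay above 0 in failure against wild type, 3 of 15 in hypertrophy against wild type and 14 of 15 in failure against hypertrophy. The shares of all genes were 58.3%, 51.2% and 57.7%. With arrays divided by their medians the core counts were 6, 3 and 12, beside 39.8%, 44.9% and 42.2% of all genes. The count of 11 was 9 without failure replicate 2 or wild type replicate 2, and 13 without failure replicate 1 or wild type replicate 3. The count of 3 in hypertrophy against wild type moved with single arrays. It was 7 without wild type replicate 3, 6 without hypertrophy replicate 1 or wild type replicate 5, and 5 without hypertrophy replicate 6 or wild type replicate 1. Without hypertrophy replicate 4 it was 4, and without hypertrophy replicate 8 or wild type replicate 4 it was 2.

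**Figure D1:**
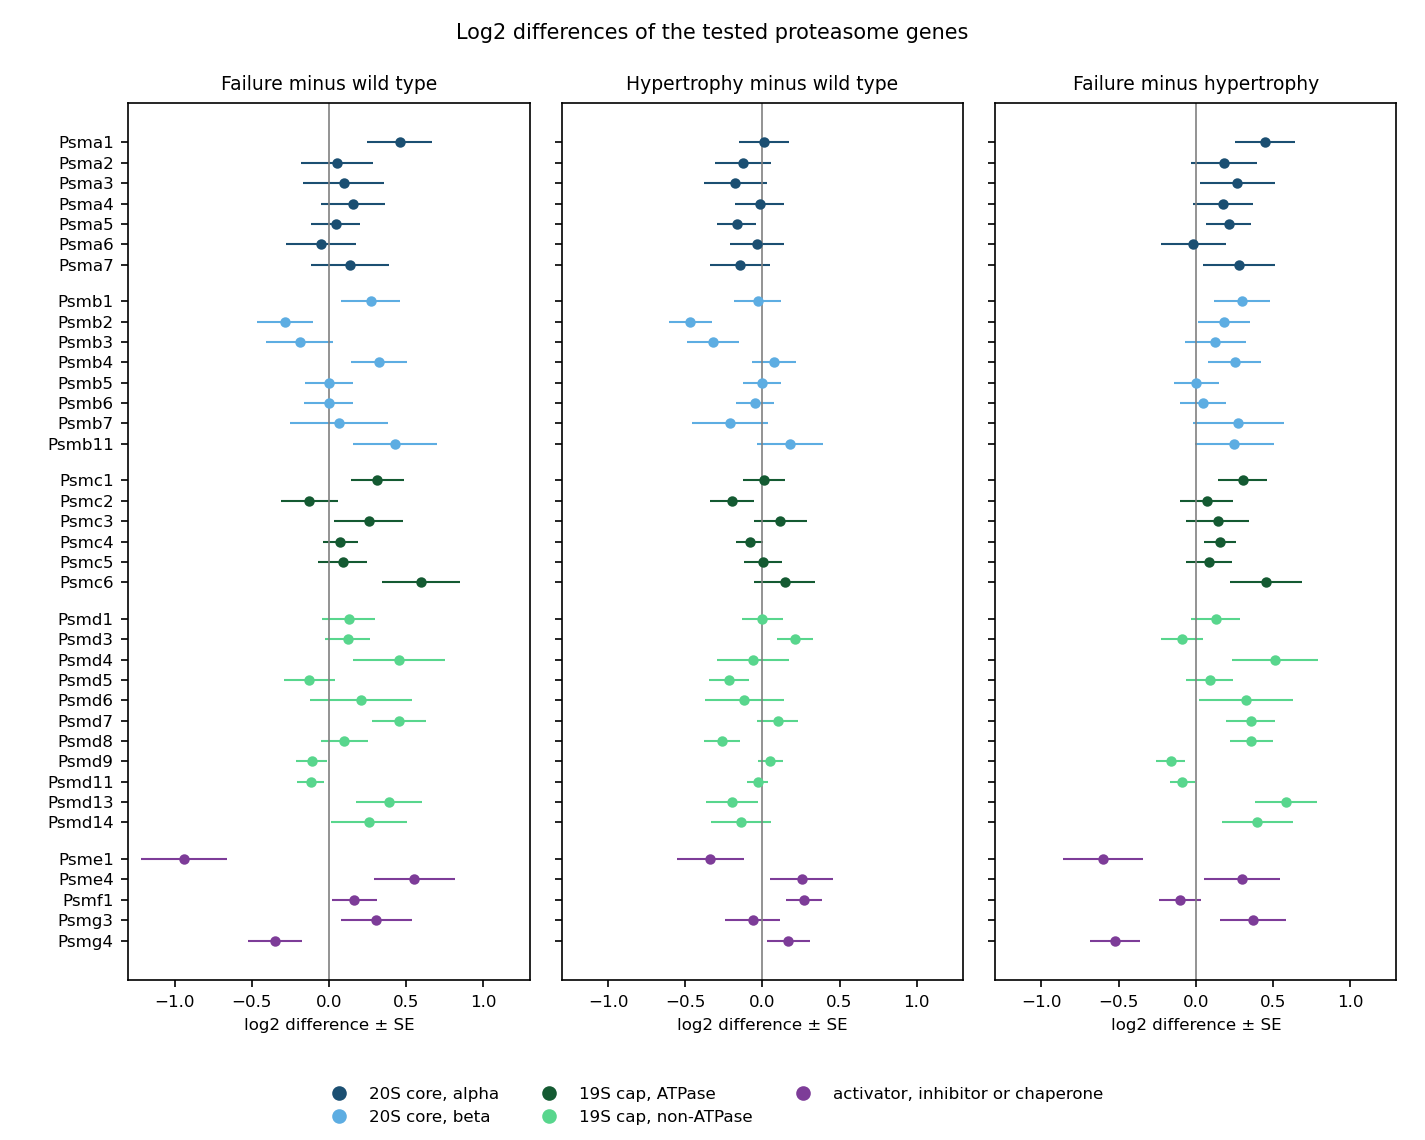
Log2 differences (x axis) of the 37 tested proteasome genes (y axis), from top to bottom the alpha and beta subunits of the core, the ATPases and other subunits of the cap, and the activators, inhibitor and chaperones; points are limma estimates and bars are ± SE. In failure minus hypertrophy 14 of the 15 core genes lie above 0. In hypertrophy minus wild type 3 of 15 do (2 to 7 when single arrays were left out), and Psme1 at -0.94 is the lowest value in failure minus wild type.

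Promoters are shown first for 4 genes that hold the core letters of the antioxidant response element, TGACNNNGC, within 250 bases before the start of transcription. They are from RefSeq on GRCm38.p6, 36 of the 43 genes matched with 38 promoters in all, and both strands were searched. The match is in capitals. It lies 47 bases before the start in Psmb5 (chr14:54617996-54618245, minus strand), 9 bases before it in Psmb6 (chr11:70525107-70525356, plus strand), 31 bases before it in Psmd9 (chr5:123227940-123228189, plus strand) and 227 bases before it in Psmc6 (chr14:45329574-45329823, plus strand), where the letters read on the opposite strand.
Psmb5: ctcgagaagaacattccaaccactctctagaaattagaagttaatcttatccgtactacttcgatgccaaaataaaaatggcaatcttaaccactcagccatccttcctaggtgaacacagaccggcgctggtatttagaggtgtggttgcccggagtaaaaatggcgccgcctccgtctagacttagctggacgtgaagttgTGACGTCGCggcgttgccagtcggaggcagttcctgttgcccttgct
Psmb6: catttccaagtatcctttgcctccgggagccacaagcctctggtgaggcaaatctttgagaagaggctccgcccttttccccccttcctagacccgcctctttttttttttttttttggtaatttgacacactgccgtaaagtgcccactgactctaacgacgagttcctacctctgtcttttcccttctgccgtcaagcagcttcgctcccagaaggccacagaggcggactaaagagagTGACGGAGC
Psmd9: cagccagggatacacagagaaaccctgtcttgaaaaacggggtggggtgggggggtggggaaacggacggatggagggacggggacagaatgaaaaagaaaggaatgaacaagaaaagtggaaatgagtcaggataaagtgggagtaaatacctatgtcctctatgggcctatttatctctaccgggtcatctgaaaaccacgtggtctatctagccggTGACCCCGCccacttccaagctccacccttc
Psmc6: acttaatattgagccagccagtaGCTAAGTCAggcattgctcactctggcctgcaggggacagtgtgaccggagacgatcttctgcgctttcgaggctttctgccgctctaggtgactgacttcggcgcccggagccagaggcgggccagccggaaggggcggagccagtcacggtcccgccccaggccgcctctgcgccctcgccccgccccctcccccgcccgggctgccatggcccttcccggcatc

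The motif was in 5 of 38 proteasome promoters (13.2%), the fifth being Psmd12, beside 10.2% of all promoters of the table and 10.4% of those of protein-coding genes. CCAAT was in 34.2% of proteasome promoters, beside 33.8% of all and 35.4% of protein-coding ones, and in 53.8% of the core promoters. GGCGGG, the letters of a GC box, was in 68.4% of proteasome promoters and 83.3% of cap promoters, beside 32.5% of all and 42.1% of protein-coding ones. These matches are letters in a window and are given as a description. The log2 differences of failure over wild type of the 4 genes shown were 0.00 ± 0.16 for Psmb5 and Psmb6, -0.11 ± 0.10 for Psmd9 and 0.60 ± 0.25 for Psmc6, and Psmd12 was too dim to test.

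The alpha subunits form the outer rings of the core, and 6 of the 7 lay above 0 in failure against wild type, with a median log2 difference of 0.09. Psma1 had the largest of these. Its signal was 265, 231 and 212 on the failure arrays and 168, 149.9, 196, 147 and 201 on the wild type arrays, with a lowest, median and highest signal of 96.5, 182 and 238 on the hypertrophy arrays. All 3 failure arrays were above all 5 wild type arrays, while the hypertrophy arrays spanned both. On the log2 scale the difference was 0.46 ± 0.21 (SE) for failure over wild type (limma adjusted p = 0.45) and 0.45 ± 0.20 for failure over hypertrophy (adjusted p = 0.453), and the difference over hypertrophy was 0.33 without hypertrophy replicate 7, the array with the lowest Psma1 signal.

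The other alpha subunits had failure over wild type differences between -0.05 (Psma6) and 0.16 (Psma4), all smaller than their SE of 0.16 to 0.26. In hypertrophy 6 of 7 were below 0, from -0.17 for Psma3 and Psma5 to -0.02 for Psma4. Psma5 averaged 286 ± 47.3 in failure, 248 ± 40.5 in hypertrophy and 275 ± 24.2 in wild type (SD, n = 3, 8 and 5). Psma3 averaged 334 ± 63.1, 286 ± 82.1 and 311 ± 48.6 in the same order of groups, with 132 on hypertrophy replicate 1. The ranges of the groups overlapped for all 6 of these genes in every comparison.

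The 3 catalytic beta subunits had overlapping groups in every comparison. Psmb5, the chymotrypsin-like subunit, had a signal of 485, 547 and 568 on the failure arrays, 428, 525 and 761 as lowest, median and highest hypertrophy values, and 563, 554, 592, 499.5 and 462 on the wild type arrays. The groups overlapped fully and the log2 difference was 0.00 ± 0.16 for failure over wild type and 0.00 ± 0.12 for hypertrophy over wild type. Psmb6, the caspase-like subunit, had 388, 407 and 446 on the failure arrays and 396, 313, 460.0, 404 and 524 on the wild type arrays, with hypertrophy at 339, 397 and 491. Its differences were 0.00 ± 0.16 and -0.05 ± 0.12. Psmb7, the trypsin-like subunit, had 193, 205 and 168 on the failure arrays, 72, 142 and 287 as lowest, median and highest on the hypertrophy arrays, and 157, 137, 239, 178 and 204 on the wild type arrays. Its hypertrophy arrays were the most widely spread of the 3 genes, and the log2 difference was 0.07 ± 0.32 for failure over wild type and -0.21 ± 0.25 for hypertrophy over wild type. The second value was -0.34 without hypertrophy replicate 7 and -0.05 without hypertrophy replicate 1. Over hypertrophy the failure arrays differed by 0.28 ± 0.29 (adjusted p = 0.812), or 0.12 without hypertrophy replicate 1.

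Psmb5 shows how far a gene's value here rests on its probe set. The values above are from its brightest probe set, on the second array type, while a probe set on the first type gave 0.42 ± 0.29 and another gave 0.01 ± 0.17 for failure over wild type (adjusted p = 0.664 and 0.989). The brightest was at 0.00 ± 0.16 there, and its sign turned with the scaling. In hypertrophy over wild type the 3 probe sets were at 0.00, -0.07 and 0.10. In failure over wild type probe sets disagreed in sign for 4 core or cap genes. For Psmb1 they gave 0.27, -0.03 and -0.30, for Psmb4 0.33 and -0.07, and for Psmd11 -0.12 and 0.11. The Psmb1 probe set at -0.30 had failure arrays all below wild type, while another, too dim to test, had them all above. For Psmd5 the probe set used here gave -0.13 ± 0.17, while the one on the second type had signals of 164, 152 and 117 on the failure arrays and 1, 47.7, 12.3, 66.7 and 99.6 on the wild type arrays. There the failure arrays were all higher, and since 2 of the 5 wild type arrays were under 27.4, the level that lower values of that type were set to, no fold is given. In hypertrophy against wild type the probe sets of Psmc3 differed in sign as well, at 0.12 and -0.05.

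Among the structural beta subunits, Psmb2 stood out in hypertrophy. Its lowest, median and highest signal on the hypertrophy arrays was 244, 376 and 429, against 451, 462, 545, 447 and 515 on the wild type arrays. All 8 hypertrophy arrays were below all 5 wild type arrays, which held for 0.127% of all genes, and Psmb2 was the single proteasome gene of which it was true in either direction. The log2 difference was -0.47 ± 0.14 with an unadjusted p of 0.00388 and a limma adjusted p of 0.961, and leaving out any single array kept it between -0.51 and -0.39. On the failure arrays the signal was 329.8, 457 and 412, which overlapped wild type (log2 difference -0.28 ± 0.18, adjusted p = 0.627). Psmb3, its neighbour in the ring, averaged 399.6 ± 106 in hypertrophy against 486 ± 63.8 in wild type, a log2 difference of -0.32 ± 0.17 with overlapping arrays (adjusted p = 0.961).

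Psmb4, which closes the assembly of the beta ring, had 842, 764 and 837 on the failure arrays and 701, 636, 715, 572 and 633 on the wild type arrays. In deposited signals the failure arrays were all higher, with a log2 difference of 0.33 ± 0.18 (adjusted p = 0.571). On its brightest probe set Psmb1 averaged 1487 ± 138 in failure, 1231 ± 264 in hypertrophy and 1244 ± 208 in wild type, with overlapping arrays. Psmb11, the beta subunit known from the cortex of the thymus, averaged 174 ± 11.6, 152 ± 36.5 and 135 ± 41.5 in those groups, also with overlap.

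In the cap, 5 of 6 ATPases lay above 0 in failure against wild type and 6 of 6 in failure against hypertrophy, with medians of 0.17 and 0.15. Psmc6 had the largest value. It had 375, 443 and 365 on the failure arrays and 278, 204, 309, 238 and 282 on the wild type arrays, with 134, 304 and 392 as lowest, median and highest on the hypertrophy arrays. The failure arrays were all above wild type and within the upper part of the hypertrophy range. The log2 difference of failure over wild type was 0.60 ± 0.25 (adjusted p = 0.41), and a separate probe set on the second array type gave 0.47 ± 0.25 with the failure arrays again all higher. Over hypertrophy it was 0.45 ± 0.23, and 0.30 without hypertrophy replicate 1, which had the lowest signal.

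Psmc1, the ATPase whose tail helps to open the gate of the core, averaged 187 ± 14.5 in failure, 154 ± 28.7 in hypertrophy and 151 ± 19.4 in wild type. Its log2 difference of failure over wild type was 0.31 ± 0.17 (adjusted p = 0.556). Psmc3, Psmc4 and Psmc5 lay at 0.26, 0.07 and 0.09, and Psmc2 at -0.13. In hypertrophy against wild type the ATPases ran from -0.20 (Psmc2) to 0.15 (Psmc6).

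Of the other cap subunits, Psmd7, the partner of the deubiquitinase in the lid, had the smallest p in failure against wild type after Psme1. Its signal was 544, 618 and 574 on the failure arrays and 479.6, 316, 454, 450.4 and 433 on the wild type arrays. Every failure array was above every wild type array, and the low value of wild type replicate 2 stood apart from its group. The log2 difference was 0.45 ± 0.17 (adjusted p = 0.338) and 0.35 without that array. The hypertrophy arrays had 339.9, 455 and 592 as lowest, median and highest, and the log2 difference of failure over hypertrophy was 0.35 ± 0.16 (adjusted p = 0.472).

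Psmd13, a structural subunit of the lid, had 284, 303 and 303 on the failure arrays. On the hypertrophy arrays its lowest, median and highest values were 128, 196 and 282, and on the wild type arrays it had 231, 187, 254, 219.6 and 246. The failure arrays were above all arrays of both other groups. The log2 difference was 0.58 ± 0.20 over hypertrophy (adjusted p = 0.333) and 0.39 ± 0.22 over wild type (adjusted p = 0.561). In deposited signals it was the single proteasome gene with all failure arrays above all hypertrophy arrays, as 1.49% of all genes were. The closest pair was 283.7 on failure replicate 1 and 282.1 on hypertrophy replicate 8, whose array medians were 120.2 and 111.9. Divided by those medians, the failure value lay below the hypertrophy value, so this separation depended on the scaling.

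Psmd4, a ubiquitin receptor of the cap, had 664, 699 and 825 on the failure arrays and 640.3, 356, 609, 496 and 608 on the wild type arrays. In deposited signals the failure arrays were all higher, if by little for the closest pair, 664 and 640.3. The log2 difference was 0.45 ± 0.30 (adjusted p = 0.646). Its hypertrophy arrays spread widely, with 274, 459.7 and 856 as lowest, median and highest. Psmd14, the deubiquitinase that cuts the chain from the substrate, averaged 149.6 ± 30.2 in failure, 117 ± 33 in hypertrophy and 124 ± 19 in wild type. Its log2 difference of failure over hypertrophy was 0.40 ± 0.23 (adjusted p = 0.583) and 0.25 without failure replicate 2.

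Psmd8, another lid subunit, was low in hypertrophy relative to both other groups. It had 187, 191 and 234 on the failure arrays, a lowest, median and highest of 122, 153 and 214 on the hypertrophy arrays, and 183, 175, 209.7, 206 and 177 on the wild type arrays. The ranges overlapped in both comparisons, and its log2 difference was 0.36 ± 0.14 for failure over hypertrophy (adjusted p = 0.406) and -0.26 ± 0.12 for hypertrophy over wild type (adjusted p = 0.961).

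The remaining tested cap genes had overlapping arrays in every comparison. In failure over wild type the log2 difference was 0.13 ± 0.17 for Psmd1, a scaffold of the base, 0.12 ± 0.15 for Psmd3 and 0.21 ± 0.33 for Psmd6, both of the lid, and -0.12 ± 0.09 for Psmd11, the lid subunit that clamps cap to core. It was -0.13 ± 0.17 for Psmd5 and -0.11 ± 0.10 for Psmd9, assembly chaperones of the cap that are not kept in the finished particle. The probe set used for Psmd11 had the smallest spread of all. Its arrays ran from 776 to 856 in failure, 814 to 931 in hypertrophy and 848 to 924 in wild type. Another tested probe set of Psmd11 was more widely spread, at 358 to 396, 250 to 403 and 284 to 396 in the same order. In hypertrophy over wild type Psmd3 had 0.21 ± 0.12 and Psmd5 had -0.22 ± 0.13 (adjusted p = 0.961 for both).

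**Figure D2:**
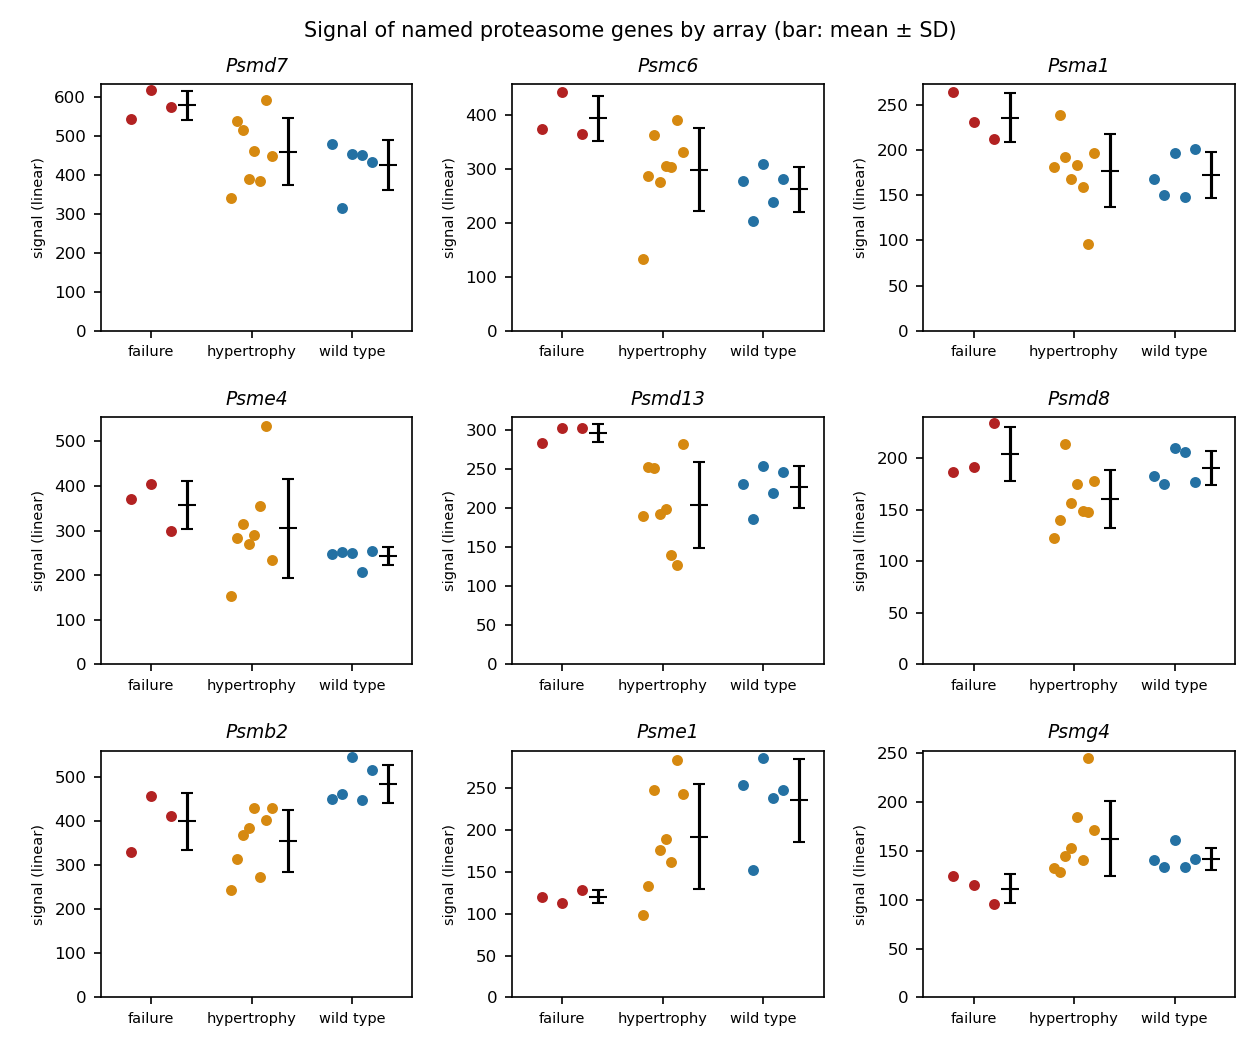
Signal by array on a linear scale (y axis) for 9 proteasome genes in failure (left, 3 arrays), hypertrophy (middle, 8 arrays) and wild type (right, 5 arrays); each point is an array and the black bar is the group mean ± SD. The failure arrays lie above all wild type arrays for Psmd7, Psmc6, Psma1, Psme4 and Psmd13 and below all of them for Psme1 and Psmg4, while the hypertrophy arrays lie below all wild type arrays for Psmb2.

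Outside core and cap the largest difference of any proteasome gene was in Psme1, a subunit of the PA28 activator ring, which is induced by interferon and serves antigen processing. It had 119.7, 113 and 128 on the failure arrays, against 253, 152, 285, 237 and 247 on the wild type arrays. The hypertrophy arrays spanned both, with 98.5, 183 and 284 as lowest, median and highest. All failure arrays were below all wild type arrays and close to each other, with a mean of 120.1 ± 7.64 against 235 ± 49.7 (SD, n = 3 and 5). Psme1 had a log2 difference of -0.94 ± 0.28, with an unadjusted p of 0.00371 and a limma adjusted p of 0.219. These values are from the brighter of its 2 probe sets, and the other is not described here. Fitted on the failure and wild type arrays alone the adjusted p was 0.0327, in a fit that called 2.04% of all genes. Over hypertrophy the difference was -0.60 ± 0.26 (adjusted p = 0.445).

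The immunoproteasome subunits, which interferon also induces and which replace the catalytic ones, are set beside it. Psmb8 had 122, 109 and 107 on the failure arrays and 133, 113, 108, 124 and 139 on the wild type arrays. Psmb9 had 132, 83.2 and 49.5 on the failure arrays and 76, 185, 75.8, 109 and 80.0 on the wild type arrays. Psmb10 had 342, 424 and 534 on the failure arrays and 416, 294, 429.7, 378 and 358 on the wild type arrays. The groups overlapped for each, with log2 differences of -0.12 ± 0.13, -0.27 ± 0.36 and 0.20 ± 0.19. The difference between Psme1 and these genes was not tested.

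Psme4, the single-chain PA200 activator, lay on the other side of 0. It had 369.7, 405 and 299 on the failure arrays and 248, 252, 251, 206 and 255 on the wild type arrays. The failure arrays were all higher, with a log2 difference of 0.55 ± 0.26 (adjusted p = 0.468). The hypertrophy arrays had 152, 287 and 535 as lowest, median and highest, which spans both other groups.

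Psmg4, a chaperone that helps to build the alpha ring, was low in failure. It had 124, 115 and 95.6 on the failure arrays, against 128, 149 and 245 as lowest, median and highest on the hypertrophy arrays. On the wild type arrays it had 141, 133, 161, 133 and 142. The failure arrays were below every array of both other groups, which against hypertrophy held for 0.753% of all genes and for no other proteasome gene. Its log2 difference was -0.52 ± 0.16 over hypertrophy (adjusted p = 0.294) and -0.35 ± 0.18 over wild type (adjusted p = 0.495). Psmg3, its partner in that chaperone pair, averaged 551 ± 29.1 in failure, 441 ± 109.9 in hypertrophy and 447 ± 54.2 in wild type. In deposited signals the failure arrays of Psmg3 were all above wild type, the closest values being 518 and 499. Its log2 difference was 0.31 ± 0.23 (adjusted p = 0.687), so the pair lay on opposite sides of 0. The Psmg3 values are from the brighter of its 2 probe sets, and the other is not described here.

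Psmf1, known as PI31 and named for inhibiting the isolated core, had the highest difference of hypertrophy over wild type. It had 223, 244 and 385 as lowest, median and highest on the hypertrophy arrays, against 196, 212, 209, 208 and 244 on the wild type arrays. The ranges overlapped, and the log2 difference was 0.27 ± 0.11 (unadjusted p = 0.0317, adjusted p = 0.468). Without hypertrophy replicate 5, the array at 385, it was 0.19. On the failure arrays it had 234, 243 and 240.3. The Psmf1 values are from the brightest of its 3 probe sets, and the others are not described here.

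Counted over all 37 tested proteasome genes, the failure arrays lay wholly above wild type for 8 and wholly below for 2, where 8.84% and 4.75% of all genes did so. The 8 were Psma1 and Psmb4 of the core, Psmc6, Psmd4, Psmd7 and Psmd13 of the cap, Psme4 and Psmg3, and the 2 were Psme1 and Psmg4. Hypertrophy arrays lay wholly above wild type for 0 genes and wholly below for Psmb2, beside 0.265% and 0.127% of all genes. No test of these shares against each other was made. All these counts used signals as deposited. Divided by the array medians, Psmb4 and Psmd4, for example, overlapped wild type. The other tested probe set of Psmb4 overlapped wild type as deposited, with a log2 difference of -0.07. Psmc3ip, the gene that fits only by name, had failure arrays wholly below wild type as well (387 ± 57.3 against 499 ± 48.5, log2 difference -0.37 ± 0.15, adjusted p = 0.364).

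Of the 43 genes, 6 were too dim to test, since they did not reach their own array's median in 3 arrays. These were Psmd2, the scaffold and ubiquitin-shuttle docking subunit of the base, Psmd10, an assembly chaperone of the cap, and Psmd12 of the cap. The others were Psme3, a further activator, and the chaperones Psmg1 and Psmg2. Psmd2 averaged 57.4 ± 11.2 in failure, 55.4 ± 7.21 in hypertrophy and 61.4 ± 3.58 in wild type. Psmg2 was at 1, the lowest value of the deposited data, on every array.

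When arrays were weighted by their agreement with their group, the outcome of the tests moved. In that fit 6 proteasome genes passed in failure against wild type, Psma1, Psmc1, Psmc6, Psmd7 and Psme4 higher and Psme1 lower, where 10.4% of all genes passed. In failure against hypertrophy 3 passed, Psmd13 higher and Psme1 and Psmg4 lower, where 2.29% of all genes passed. The weights ran from 0.253 for hypertrophy replicate 1 to 3.45 for failure replicate 2 on the first array type.

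The core and cap were also followed array by array on the first type, where 13 core and 17 cap genes were tested. The mean log2 signal of the core was 8.56, 8.68 and 8.48 on the failure arrays, 7.78 to 8.72 on the hypertrophy arrays and 8.23 to 8.72 on the wild type arrays. That of the cap was 8.24, 8.33 and 8.27 on the failure arrays, 7.66 to 8.26 on the hypertrophy arrays and 7.92 to 8.26 on the wild type arrays. For the core the failure arrays lay inside the range of both other groups. For the cap, in deposited signals, failure replicates 2 and 3 lay above all hypertrophy and wild type arrays and failure replicate 1 did not. The array median was 119.3 on failure replicate 2, 112.4 on wild type replicate 3 and 102.1 on hypertrophy replicate 2. With signals divided by those medians, failure replicate 2 lay below both of these arrays, so its place depended on the scaling.

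**Figure D3:**
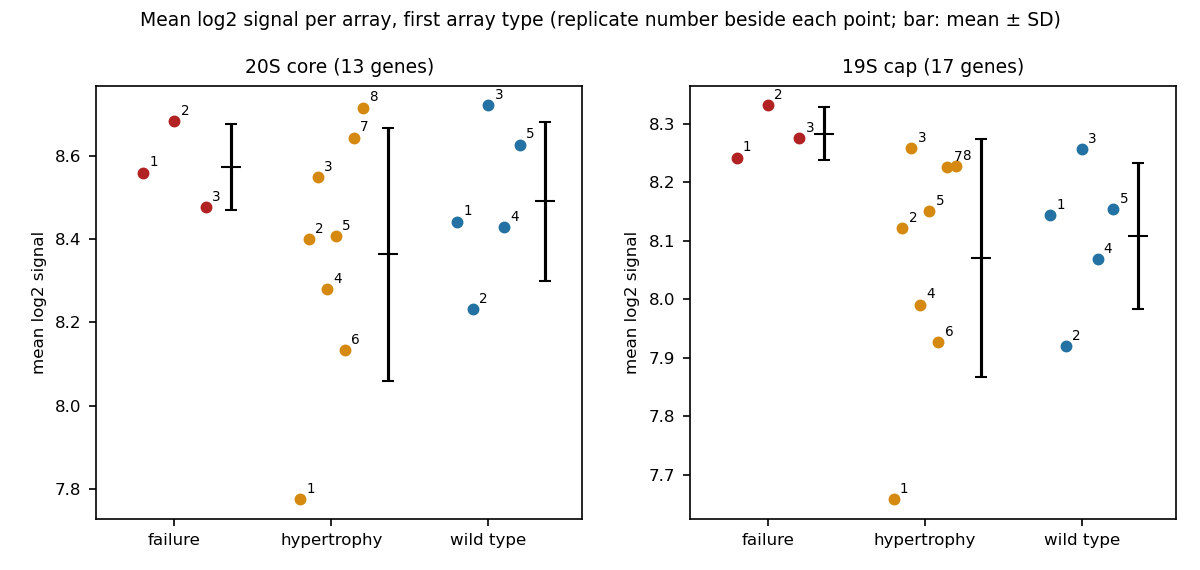
Mean log2 signal (y axis) of the 13 core genes (left) and the 17 cap genes (right) tested on the first array type, for each failure, hypertrophy and wild type array, with the replicate number beside each point and the group mean ± SD as a bar. The failure group averaged 8.57 for the core and 8.28 for the cap, hypertrophy 8.36 and 8.07 and wild type 8.49 and 8.11, and hypertrophy replicate 1 is the lowest array of both panels.

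Hypertrophy replicate 1 was the lowest array for both. Relative to its group mean its core genes were lower by 0.59 on average and its cap genes by 0.41, while all 5031 genes tested and represented on that type were lower by 0.23. This array also had the lowest median signal of the type, 91.5. Hypertrophy replicates 6 and 7 had the lowest ratios of 5' to 3' Gapdh signal, a measure of RNA integrity, at 0.468 and 0.0487, beside 0.922 to 1.11 on the failure arrays and 0.806 to 0.955 on the wild type arrays. The core genes of replicate 6 were lower than their group mean by 0.23 and those of replicate 7 were 0.28 higher. The part of signal level and RNA integrity in the proteasome values was not tested.

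Within groups the core genes varied together. After taking each group's mean from each gene, the median Pearson correlation over the 16 arrays was 0.69 between core genes, 0.27 between cap genes and 0.53 between a core and a cap gene, beside 0.09 between any 2 of the 5031 genes. The Spearman medians were 0.65, 0.21, 0.45 and 0.07. These points share an array and its scaling, so part of any such value is common to all genes on the array. With arrays divided by their median the Pearson medians were 0.53, 0.12, 0.37 and 0.02, and without hypertrophy replicate 1 they were 0.55, 0.18, 0.36 and 0.05. Without hypertrophy replicates 6 and 7 they were 0.77, 0.37, 0.58 and 0.10.

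Genes differed in how closely they followed the rest. The correlation with the mean of the 29 other core and cap genes was 0.93 for Psma2, 0.91 for Psmb1 and 0.90 for Psmb7 and Psmc6. It was 0.02 for Psmd11, -0.02 for Psma1, -0.14 for Psmd9, -0.28 for Psmc4 and -0.42 for Psmd3. For Psmd11 this is the probe set of small spread, and its other tested probe set was not set against the rest. The value for Psma1 was 0.39 as Spearman's rho, and hypertrophy replicate 7 was low for Psma1 and high for most other core genes. The median SD within groups was 0.31 (log2) for core genes, 0.24 for cap genes and 0.23 for all genes.

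**Figure D4:**
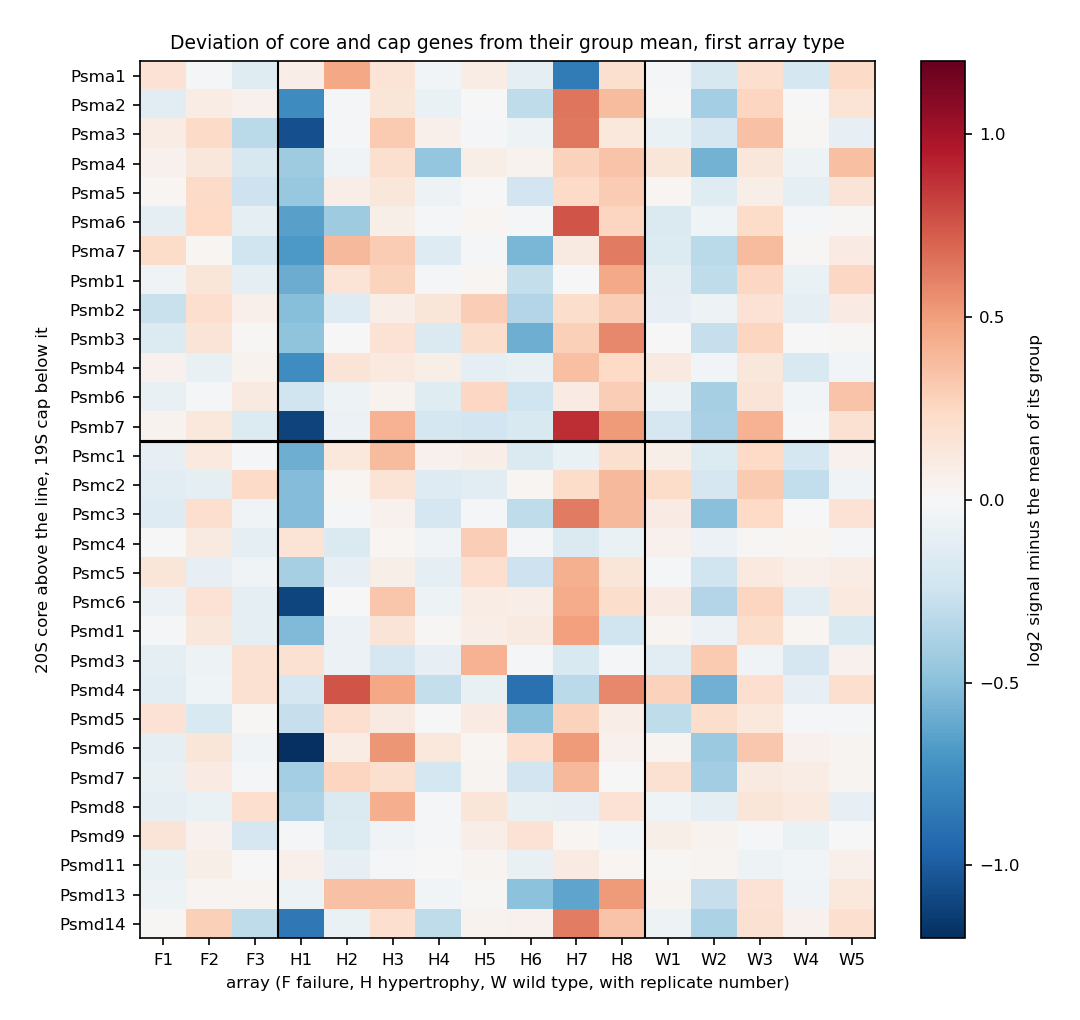
Deviation of each array's log2 signal from the mean of its group (colour scale) for the 13 core genes above the line and the 17 cap genes below it, by failure, hypertrophy and wild type array. Hypertrophy replicate 1 is low for most core and many cap genes, wild type replicate 2 is low for many of them, and Psma1 departs from the other core genes on hypertrophy replicate 7.

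Genes around the proteasome are given for comparison, and none passed an adjusted p of 0.05 in any comparison. Of 7 tested genes of the Nrf1 route, 6 lay above 0 in failure against wild type, with a median log2 difference of 0.26, and 7 of 7 in hypertrophy, with a median of 0.09. Nfe2l1, which encodes Nrf1 itself, averaged 1112 ± 98.4 in failure, 886 ± 249 in hypertrophy and 759 ± 98.4 in wild type. Its failure arrays were all above wild type, with a log2 difference of 0.56 ± 0.21 (adjusted p = 0.333). Maff, a small partner of Nrf factors, had 0.39 ± 0.11 (adjusted p = 0.128) with failure arrays all higher, and Nfe2l2, the related oxidative stress factor, had 0.35 ± 0.14 with overlap.

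Of 7 tested genes of p97, the ATPase that extracts ubiquitinated proteins, and its cofactors, 5 lay above 0 in failure against wild type with a median of 0.19, and Faf2 at -0.32 ± 0.14 had failure arrays all below wild type (adjusted p = 0.378). Of 13 ubiquitin ligases of muscle 8 lay above 0, with a median of 0.15. All failure arrays were above wild type for Cblb and Nedd4 and all below for Stub1 and Wwp1. Cblb had a log2 difference of 0.47 ± 0.13 (adjusted p = 0.117), Nedd4 0.18 ± 0.22, Stub1, a ligase that works with chaperones, -0.13 ± 0.10 and Wwp1 -0.20 ± 0.48, while Fbxo32, the atrophy ligase atrogin, had 0.46 ± 0.21 with overlap (adjusted p = 0.404). Of 19 ubiquitin conjugating enzymes 13 did, with a median of 0.08, and of 13 proteasome-associated and assembly factors 9 did, with a median of 0.05. In that last list Ubqln1, a shuttle that carries ubiquitinated proteins to the proteasome, had 0.56 ± 0.23 (adjusted p = 0.402), while Pomp, the maturation factor of the core, had 0.13 ± 0.15.

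Markers of cell types are also given for comparison, and no tested marker passed the adjusted p threshold in any comparison. Of 8 fibroblast markers 7 lay above 0 in failure against wild type, with a median log2 difference of 0.40, and their summed signal on the first type was 3688 to 7344 in failure, 2572 to 5542 in hypertrophy and 3696 to 4361 in wild type. The atrial list held Myl7, Myl4, Sln and Nppa. Of its 3 tested genes 2 lay above 0 in failure against wild type, with a median log2 difference of 1.26 and a range of -0.61 to 1.60. This was the largest median of the marker lists, and in failure against hypertrophy it was 1.37. For 2 of the 3 genes the failure arrays lay wholly above wild type, as for 8.84% of all genes. Their summed signal was 4051 to 5901 in failure, 957 to 4630 in hypertrophy and 1179 to 3344 in wild type. The 8 ventricular cardiomyocyte markers had a median of -0.02 and summed to 43014 to 44219 in failure, 38965 to 48189 in hypertrophy and 42078 to 46789 in wild type. Endothelial, macrophage and smooth muscle markers had medians of 0.01, 0.09 and 0.08. In whole ventricle, fewer cells of a type and less RNA per cell cannot be told apart, and the part of cell makeup in the proteasome values was not tested.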

How the data were processed

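The series holds signals from 2 types of Affymetrix array, 16 arrays each. The authors deposited linear intensities, 1 per probe set; the summary and scaling behind them are not given in the sources used here. With arrays there is no read depth: precision depends on how many there are.

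Intensities entered as deposited, since trimmed means differed between arrays by 4.90% and 3.37% (coefficient of variation; medians by 6.63% and 4.64%). Lower values were set to the 20th percentile of their type (39.5 and 27.4) and log2 was taken; no array was that low in the probe set that stood for a tested proteasome gene. Tests covered probe sets at or above the median of their own array in 3 or more arrays, 6990 of 12488 and 7016 of 12477. Genes were named from the platform annotation. The probe set with the highest mean log2 signal stood for its gene, and levels of different genes are not compared. Of the 45 genes, 42 were read on the first type and 3 (Psmb5, Psmb11 and Psmf1) on the other, and 11 had several probe sets.

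limma 3.58.1 (R 4.3.3; lmFit, eBayes) was run per type over 3 failure, 8 hypertrophy and 5 wild type arrays, with Benjamini-Hochberg adjustment per type and comparison and a threshold of 0.05. The procedure was tested on simulated data, drawn independently for each gene and with planted changes larger than the proteasome differences reported. That test does not cover small differences, genes that vary together or outlying arrays. Named are, per comparison, the 8 genes of smallest p and subunits fixed by role. Members and lists were chosen with earlier results of these data known. Alternatives covered scaling, floor, filter, variance model, array weights, arrays fitted, replicate block, probe set choice and adjustment. Matplotlib 3.10.9 drew the figures.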

Additional observations from a re-analysis of the deposited data

Results flagged for a closer look

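In 10 of 76 gene and group combinations examined, the highest or lowest array stood apart from its nearest neighbour by more than Dixon's 95% limit, which chance passes in about 1 of 20 groups. On hypertrophy replicate 1 the low values were 132 for Psma3 (next lowest 261), 408 for Psmb4 (635), 134 for Psmc6 (275) and 64.7 for Psmd6 (189). On hypertrophy replicate 7 they were 96.5 for Psma1 (159), 73.0 for Psmb11 (125) and 215 for Psmg3 (402). Psmf1 had a high value of 385 on hypertrophy replicate 5 (next highest 272). Among wild type arrays, Psmd7 was at 316 on replicate 2 (next lowest 433) and Psme4 at 206 on replicate 4 (248).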

How the results depend on the processing

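No proteasome gene passed the threshold in hypertrophy against wild type under any alternative run. With array weights 6 passed for failure over wild type and 3 for failure over hypertrophy (980 and 216 of all genes), and Psmc3ip passed in the first of these. With only the groups compared 1 passed for failure over wild type (192 of all genes, against 21 in the fit reported). All other alternatives that count calls gave 0, leaving out each array included. The medians of all proteasome genes were small against the spread of their mean between arrays (SD 0.20 on the log2 scale) and moved by over 1.5 times. Leaving out each array in turn, they ran from 0.056 to 0.17 for failure over wild type (0.12), -0.099 to -0.00074 for hypertrophy over wild type (-0.04) and 0.11 to 0.23 for failure over hypertrophy (0.18). The core medians ran from 0.0088 to 0.17 (0.07), -0.16 to -0.0095 (-0.05) and 0.12 to 0.25 (0.21), and the cap medians of failure over wild type and over hypertrophy from 0.11 to 0.18 (0.13) and 0.11 to 0.23 (0.16). The lowest or highest values came without failure replicate 2 or 3, hypertrophy replicate 1, 7 or 8, or wild type replicate 2 or 3. With median scaling the medians of all proteasome genes were 0.026 for failure over wild type and 0.092 for failure over hypertrophy. The cap median of hypertrophy over wild type was 0.0043 with quantile scaling and 0.054 without hypertrophy replicate 1.

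The count of genes at an unadjusted p of 0.05 for failure over wild type, 5, was 1 without failure replicate 2, 2 without wild type replicate 2 or 4, 3 without failure replicate 1, hypertrophy replicate 4, 5 or 6 or wild type replicate 1, and 8 without hypertrophy replicate 7. For failure over hypertrophy, 6, it was 3 without failure replicate 2 or 3. For hypertrophy over wild type, 3, it was 1 without wild type replicate 3 or 4 and 5 without wild type replicate 2.

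Signs turned only for 5 of the named genes. For failure over wild type Psmb5 was -0.090 with median scaling, -0.013 with quantile scaling, -0.031 with array weights and -0.038 with the replicate block, Psmb7 was -0.028 with median scaling and Psmb6 was 0.077 with the block. For hypertrophy over wild type Psmg3 was 0.049 with array weights, 0.12 with the block and 0.12 without hypertrophy replicates 6 and 7, and Psmd4 was 0.067 with the block and 0.14 without those arrays. For failure over hypertrophy Psmb5 was -0.039 and Psmb6 -0.044 with median scaling, and Psmb6 -0.034 with array weights. Leaving out each array in turn, failure over wild type ran from -0.051 to 0.067 for Psmb5, -0.10 to 0.084 for Psmb6 and -0.030 to 0.17 for Psmb7. Hypertrophy over wild type ran from -0.078 to 0.041 for Psmb5, -0.15 to 0.038 for Psmb6, -0.20 to 0.068 for Psmd4 and -0.13 to 0.080 for Psmg3, and failure over hypertrophy from -0.043 to 0.078 for Psmb5 and -0.0099 to 0.092 for Psmb6. The cause was not tested.

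Arrays of the same replicate number did not deviate together (median correlation -0.07 and -0.06 on the 2 types, above 0.1 in 3 and 2 of 11 pairs), so the numbers were not taken as pairs. With the replicate number as a block 0 proteasome genes passed in each comparison, and the medians of all proteasome genes were 0.14, -0.07 and 0.28.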
